A study of Mus musculus with 4 samples.

Results

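Cytosolic ribosomal protein genes were followed in hippocampal dentate gyrus from C57BL/6J mice, young males that served as handled controls. The members are the non-control probe sets whose array annotation gives a single symbol of a large subunit (Rpl), P-stalk (Rplp) or small subunit (Rps, Rpsa) protein, without S6 kinases and without symbols marked as pseudogenes. There were 49 such probe sets of 35 genes, among 12422 probe sets that are not controls and 8251 genes named by a probe set of their own. Total RNA of 4 control samples was measured on single-channel oligonucleotide arrays, 1 array each for 1, 2, 4 and 6 h. These mice got no treatment beyond handling, and the hour counts from the last shock given to the experimental mice of the study, which were not analysed here. With 1 array an hour, no single hour has an error of its own, and each SD below runs over the 4 arrays (n = 4). The number of mice behind each RNA is not in the labels, and p-values rest only on the scatter of these 4 samples.

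The cytosolic ribosome is built from ribosomal RNA and a large set of proteins, most of them made from a single active gene in mammals and needed in fixed proportion. The large subunit joins amino acids and carries the P-stalk, which recruits elongation factors, and the small subunit reads the messenger RNA. Their messenger RNAs are short, abundant and begin with a pyrimidine tract, the terminal oligopyrimidine (TOP) motif, through which mTOR signalling and the protein LARP1 set their translation. In neurons, ribosomes also lie in dendrites, where local protein synthesis is known to serve synaptic plasticity.

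Of 77 ribosomal protein genes in a list of the standard mammalian subunits, 31 were named by a probe set of their own: 15 of 46 large subunit genes and 16 of 31 small subunit genes. Another 29 were named only on probe sets that also list other symbols, and 17 by none. The members also held 4 genes outside the list: Rpl39l and Rps27l, relatives of Rpl39 and Rps27, Rpl7l1, a relative of Rpl7, and Rps4l, which RefSeq gives as a transcribed pseudogene. By probe sets, 20 belonged to the large subunit, 24 to the small subunit and 5 to these others. On a log2 scale, with intensities below 16.4 raised to that floor, 31 of the 49 reached the filter on dim probe sets (a mean log2 value of 6.66), 13 of the large subunit, 16 of the small and 2 others. The filter used the mean over all arrays.

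Most kept members were bright. Their mean intensity had a median of 5833, against 450 over all 7453 kept probe sets. A mean log2 value of 12 or more, an intensity of 4096, was reached by 17 of the 31 and by 388 of the 7453. Before the filter this was 17 of 49 members and 388 of all 12422 probe sets (3.12%). Intensity depends on the probes, so it does not rank transcripts of different genes, and the split at 12 was chosen after the values were seen. The 49 members made up 0.394% of the probe sets and 3.33%, 2.81%, 3.14% and 2.85% of the summed intensity at 1, 2, 4 and 6 h. The share was highest at 1 h and lowest at 2 h.

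The brightest member was Rpl41, which encodes a very short, highly basic peptide of the large subunit. It read 59607, 48587, 59781 and 49172 at 1, 2, 4 and 6 h, a mean of 54287 ± 6249 (SD, n = 4). The 1 h and 4 h arrays were alike and stood above 2 h and 6 h. Rps28, a small protein near the exit of the messenger RNA, read 33544, 26680, 29770 and 26642 on its brightest probe set. Rps24, a small subunit protein, read 33329, 24830, 25540 and 23570. In both, 1 h was the highest array and 6 h the lowest. The identifiers of these probe sets end in _f_at (Rpl41 and Rps28) or _r_at (Rps24). Such classes can rest on fewer or less specific probes, so these brightest readings may not be of a single gene.

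Among the other bright large subunit genes, Rpl19 read 20669, 15338, 16619 and 15667 at the 4 hours, and Rpl8, which lies near the peptidyl transferase centre, 10927, 9965, 11029 and 10812. Rplp0, the scaffold of the P-stalk, read 11764, 9258, 10532 and 9764. Rplp1 and Rplp2, the other P-stalk proteins, had no probe set of their own. In each of the 3 measured genes 2 h was the lowest array. Rps18 read 15900, 12748, 14910 and 13318, Rps7 12830, 10853, 12758 and 10803, and Rps3a1 14282, 13043, 15705 and 12656. All 3 small subunit genes were higher at 1 h and at 4 h than at 2 h and at 6 h. Rps10 read 12150, 7955, 9626 and 8994, the widest range among the members at or above 4096, with 1.53-fold between its highest and lowest array.

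**Figure D1:**
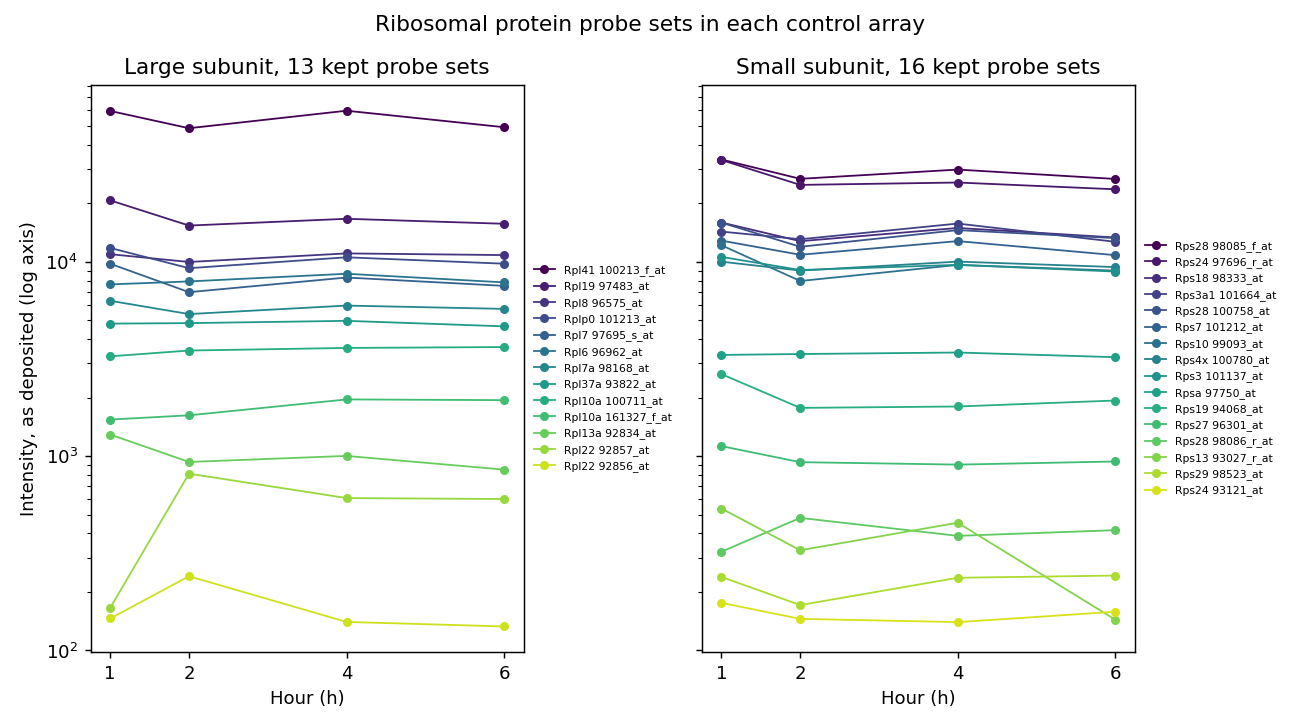
Intensity as deposited (log axis) of the 29 kept large and small subunit probe sets against the hour, with 1 line per probe set and 1 array per hour. Most of the brightest lines, from Rpl41 at 54287 on average downward, dip at 2 h and at 6 h, while Rpl22 (165.7 at 1 h and 812.0 at 2 h) and Rps13 (537.1 at 1 h and 144.0 at 6 h) move most.

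The flattest kept members were also of high or middle brightness. Rpsa, a small subunit protein also known as the laminin receptor, read 3314, 3349, 3410 and 3226 at 1, 2, 4 and 6 h, an SD of 0.033 on the log2 scale. Rpl37a read 4802, 4830, 4962 and 4649 (SD 0.039). Rpl8 (SD 0.067), Rpl10a on its brighter probe set (3259, 3491, 3600 and 3638, SD 0.072) and Rps4x on its brightest (9998, 9000, 10007 and 9382, SD 0.075) followed. The highest and lowest array of each of these 5 lay within 1.12-fold of each other. Rps4x is the X-linked copy of a small subunit gene whose Y-linked partner is known in human.

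The median SD over the 4 arrays was 0.167 on the log2 scale for kept members and 0.243 for all kept probe sets. Among other probe sets the median SD fell to 0.138 for mean log2 values from 12 up to 14, against 0.395 in the dimmest kept ones. With mean log2 values from 12 up to 14 the median SD was 0.139 for 13 members and 0.138 for 329 other probe sets, and from 14 upward 0.182 for 4 members and 0.158 for 42 others. Below 12 the members were few: 4 members had 0.124 and 1438 others 0.168 from 10 up to 12, 6 members had 0.248 and 3345 others 0.229 from 8 up to 10, and 4 members had 0.235 and 2268 others 0.395 under 8. Of the kept members 2 of 31 were, and of all kept probe sets 18.5% were, at least 2-fold apart between any hours.

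Both of these were of low brightness. Rpl22, an RNA-binding large subunit protein that mice can live without, read 165.7, 812.0, 608.0 and 601.2 at 1, 2, 4 and 6 h on its brighter probe set. The 1 h array alone was low, and 2 h stood 4.90-fold above it. A second probe set of Rpl22 read 146.1, 240.9, 140.2 and 132.9, with 2 h the highest and 1 h near 4 h and 6 h. The low 1 h value was thus seen on 1 of its 2 probe sets. Rps13, a small subunit protein, read 537.1, 327.7, 453.9 and 144.0, and here the 6 h array alone was low. Its identifier ends in _r_at, a class that can rest on fewer or less specific probes. Against 1 h, 1 member was at least 2-fold higher at 2 h (6.35% of all kept probe sets), 1 at 4 h (5.68%) and 1 at 6 h (5.69%), each time Rpl22. No member was at least 2-fold lower at 2 h (3.45% of all kept probe sets) or at 4 h (2.74%), and 1 was at 6 h (3.65%), Rps13. Rps13 was also at least 2-fold lower at 6 h than at 2 h (1 member, 2.4% of all kept probe sets) and than at 4 h (1 member, 2.35%). These differences have 1 array per hour, no replicate check and no p-value.

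A line over the hours was called for no member. In limma, fitted on all 7453 kept probe sets with Benjamini-Hochberg adjustment, 0 of 31 members passed an adjusted p of 0.05 (0.0134% of all kept probe sets, higher and lower together), and the lowest adjusted p among members was 0.874. At an unadjusted p under 0.05 there was 1 member, Rps13, or 3.23%, against 4.40% of all kept probe sets. The fit has 2 residual degrees of freedom, so a slope that misses the threshold does not show a flat level. Slopes were positive in 9 of 31 members and in 46.5% of all kept probe sets, with medians of -0.022 and -0.006 log2 units per hour. Small subunit members had 2 of 16 positive slopes and large subunit members 5 of 13. The balance rested on the 1 h array: without it 18 of 31 members had positive slopes, beside 47.4% of all kept probe sets. With arrays scaled to the same median, 14 of 31 members and 58.1% of all kept probe sets had positive slopes.

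The lowest slopes were Rps13 at -0.31 ± 0.11 (SE) log2 units per hour, Rpl13a at -0.09, the dimmer probe set of Rpl22 at -0.09, the brighter of Rps24 at -0.08 and Rps19 at -0.06. Each of these rests in part on 1 array. Without 6 h the slope of Rps13 was -0.036, and without 1 h that of Rps24 was -0.019, that of Rpl13a -0.033 and that of Rps19 0.031. The dimmer probe set of Rpl22 had -0.027 without 2 h and -0.21 without 1 h. Rpl13a, a large subunit protein that in human cells also represses translation of some inflammatory messages, read 1290, 932.8, 1002 and 852.0. Rps19, a small subunit protein mutated in human Diamond-Blackfan anaemia, read 2640, 1770, 1799 and 1931, with 1 h high and the later hours close together. The highest slopes were the brighter probe set of Rpl22 at 0.25 ± 0.16 (SE), Rps4l at 0.07 (544.2, 639.3, 637.8 and 740.0), the dimmer of Rpl10a at 0.07 (1541, 1621, 1956 and 1940), Rps29 at 0.04 (239.0, 171.2, 236.6 and 242.8) and the dimmest of Rps28 at 0.03. A second probe set of Rps4l, too dim to be kept, read 125.4, 32.6, 83.5 and 79.2, with 1 h the highest array. The slope of Rpl22 was -0.11 without 1 h and 0.51 without 6 h, that of Rps28 -0.052 without 1 h, and that of Rps29 0.0038 without 2 h and 0.13 without 1 h. The slope of Rpl10a was 0.12 without 6 h. Limma's adjusted p was 0.874 to 0.950 for these 10.

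The bright members shared an order of the arrays in place of a line. The 1 h array was the highest in 16 of 31 kept members (35.4% of all kept probe sets) and the 2 h array the lowest in 12 (23.9%). Among bright members 1 h was the highest in 11 of 17 (54.6% of all kept probe sets of that brightness). Of the 31 kept members, 17 had both the 1 h and the 4 h value above both the 2 h and the 6 h value (19% of all kept probe sets). This order was picked out after the values were seen. With mean log2 values of 12 or more it held for 15 of 17 members, against 34% of all 388 kept probe sets of that brightness, and below 12 for 2 of 14. From 12 up to 14 it held for 11 of 13 members and 28.3% of 329 others. From 14 upward it held for 4 of 4 members and 57.1% of 42 others. The exceptions among the bright members were Rpl6 (7641, 7915, 8666 and 7826), with 1 h the lowest array, and Rpl37a. Below 12 the order held for Rpl13a and Rps13. Among the remaining bright members, Rpl7 read 9757, 6969, 8288 and 7510, Rpl7a 6292, 5377, 5945 and 5717, and Rps3 10586, 9057, 9633 and 8896.

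The sizes behind this order were small. Against the mean of the other 3 arrays, the 17 bright members had median log2 deviations of 0.20, -0.16, 0.06 and -0.12 in the order of the hours. The 371 other probe sets of that brightness had 0.11, -0.07, 0.01 and -0.01. These 371 include probe sets that list a ribosomal protein gene beside other symbols. From a mean log2 value of 14 upward, 42 others had 0.20, -0.10, 0.013 and -0.09. The 4 members there had 0.33, -0.18, 0.0054 and -0.17. The 14 kept members below 12 had -0.0033, -0.00026, -0.0029 and 0.06. The deviation at 1 h among bright members ran from -0.09 to 0.46, the largest being Rps10 at 1.38-fold. Over all 31 members, 21, 8, 22 and 9 were above the mean of the other arrays at the successive hours, against 54.6%, 52.6%, 52.4% and 49.2% of all kept probe sets.

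**Figure D2:**
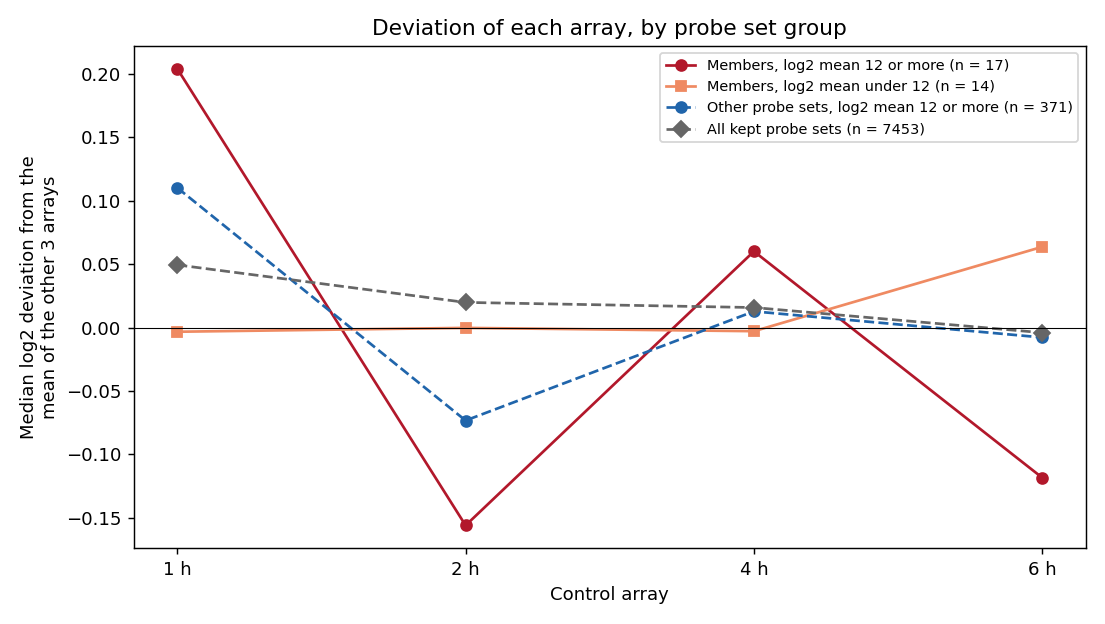
Median log2 deviation of each control array from the mean of the other 3 arrays, for kept members and other probe sets split at a mean log2 value of 12. The 17 bright members have medians of 0.20, -0.16, 0.06 and -0.12, and the 371 other bright probe sets move the same way with smaller values. These others include probe sets that list a ribosomal protein gene beside other symbols.

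The order depended on scaling. With each array scaled to the same median, the count of members with 1 h and 4 h above 2 h and 6 h was 9 of 31, and the members' median deviation at 6 h was 0.04, against -0.07 in the values as deposited. That scaling raised the median deviation at 6 h of all kept probe sets to 0.11. With quantile normalization, which gives every array the same spread of values, the count was 12 of 31 and the bright members' median deviations were 0.09, -0.06, 0.04 and -0.07 at the 4 hours. The share of all kept probe sets with this order was not computed under either scaling. These counts therefore do not show whether the members still stand apart from the rest. With the same median, the bright members' median deviations were 0.16, -0.18, 0.017 and -0.0070, and those of other bright probe sets 0.07, -0.10, -0.03 and 0.10. With quantile normalization the other bright probe sets had 0.03, -0.01, 0.0004 and 0.0085. These differences were not tested. Under both scalings, the bright members' median deviation was highest at 1 h. It was lowest at 2 h with the same median and at 6 h with quantile normalization. The parts at 4 h and 6 h also moved with single arrays. The bright members' median deviation at 4 h was 0.0044 without the 2 h array and 0.15 without the 1 h array, and with the same median 0.017. At 6 h it was -0.21 without the 2 h array, -0.050 without the 1 h array and -0.0070 with the same median. Without the 1 h array, 21 of 31 members were higher at 4 h than at both 2 h and 6 h (33.2% of all kept probe sets). The share among probe sets of like brightness was not computed, and this count is part of the order picked after the values were seen.

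Measures of RNA integrity, read as 3' to 5' ratios, had the order of the bright members. Both ratios were higher at 1 h and 4 h than at 2 h and 6 h, and highest at 1 h. The 3' to 5' intensity ratio of the control transcript Gapdh was 4.88 at 1 h and 1.13, 1.33 and 1.24 at 2, 4 and 6 h, and that of beta-actin 2.51, 1.83, 2.20 and 1.97. The 3' probe set of Gapdh itself read 36881, 30325, 33100 and 31508, also with 1 h and 4 h above 2 h and 6 h, while that of beta-actin read 40257, 33393, 31878 and 31198, highest at 1 h and lowest at 6 h. The 99th percentile of intensity was 10913, 9929, 10523 and 9995, so the brightest part of each array was itself higher at 1 h and 4 h. The part of these in the ribosomal values was not tested. Of the tissue checks, the granule cell genes Calb1 (2033, 2052, 2323 and 2375) and Dsp (970.2, 1025, 1051 and 1109) were measured and Prox1 was dim (71.6, 278.2, 155.3 and 232.1). A second probe set of Dsp, too dim to be kept, read 39.5, 10, 3.1 and 2 and fell over the hours. Kept probe sets of the CA pyramidal list were also bright, with a median mean intensity of 1295, against 953 for the granule cell list. The choroid plexus gene Ttr read 224.6, 443.6, 1258 and 3009, an order unlike that of the ribosomal genes, and was the 1 probe set of the array called by the slope test (limma, adjusted p = 0.0232). Over cell type lists, the median deviation at 1 h was -0.14 for 8 granule cell probe sets, -0.15 for 5 of CA pyramidal cells and 0.03 for 10 of interneurons. At the same hour it was -0.35 for 12 of oligodendrocytes, -0.13 for 14 of astrocytes, -0.11 for 9 of microglia and 0.22 for 8 of endothelial cells. It was -1.06, -0.99, 0.24 and 1.03 over the hours for 5 choroid plexus probe sets, with sums of 2273, 4042, 5314 and 7233. The 11 meningeal probe sets had -0.12, 0.05, 0.52 and -0.13, with sums of 25864, 34407, 45731 and 29068, highest at 4 h. The summed intensity of the oligodendrocyte list was 15792, 23079, 15911 and 16271, highest at 2 h, where the bright ribosomal members were lowest. That of the granule cell list was 7298, 7559, 7471 and 8083, and no probe set of these lists, dim ones included, was below the floor in all arrays. The part of these cell types in the ribosomal values was not tested. In bulk tissue, fewer cells of a type and less RNA per cell cannot be told apart.

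Of the 35 genes, 10 had more than 1 probe set. Different probes bind with different strength, so the levels of such probe sets are given side by side with no fold between them. Rps4x had 5 probe sets with means from 9597 down to 14.9, of which 1 was kept. The dim 4 read 14.1, 113.7, 172.3 and 16.9, then 49.6, 46.9, 40.6 and 34.5, then 17.1, 29.1, 16.7 and 15.3, and last 16, 15.2, 20.0 and 8.5 at 1, 2, 4 and 6 h. The first was below the floor of 16.4 at 1 h and well above it at 2 h and 4 h, the second was above it in every array, and the last was below it in 3 arrays. Rpl7 had means of 8131 and 34.5 and Rpl19 of 17073 and 83.5.

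Rps28 and Rps24 kept all their probe sets. The second probe set of Rps28 read 15878, 11929, 14532 and 13219, close in pattern to the first, while the dimmest, with an identifier ending in _r_at, read 322.2, 480.8, 388.7 and 415.7. There 1 h was the lowest array, opposite to the bright pair. The second probe set of Rps24 read 175.7, 145.4, 139.9 and 158.2, with a mean of 154.8, beside 26817 for the bright one. The annotation gives the bright Rps24 probe set the same sequence accession as the bright Rpl7 probe set, so the gene behind one of these values is uncertain. The accession of the Rpl7a probe set is likewise given to probe sets of Surf1 and Surf2, so its values carry the same caution. The probe sets of Rpl10a had means of 3497 and 1764, and both were lowest at 1 h.

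**Figure D3:**
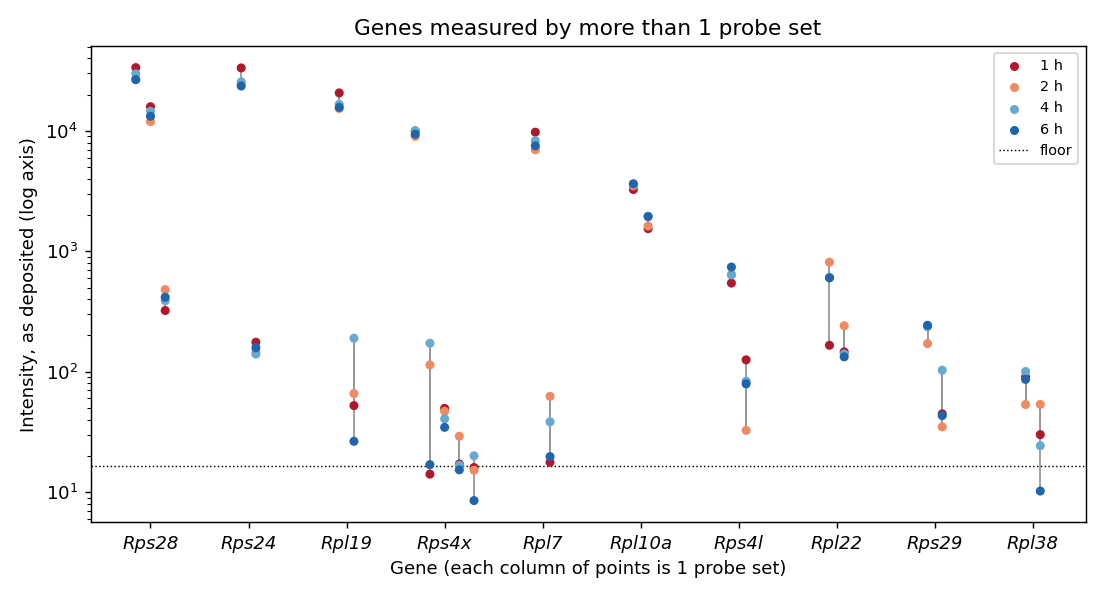
Intensity as deposited (log axis) for the 10 genes measured by more than 1 probe set, with 1 column of points per probe set, coloured by hour, and the floor of 16.4 as a dotted line. For Rps4x, Rpl7, Rpl19, Rps24 and Rps28 the columns lie far apart on the axis (means of 9597 and 14.9 at the ends for Rps4x, the lower one under the floor), while the 4 arrays of a bright probe set nearly coincide.

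The 18 members that were not kept had means from 14.9 to 83.5, and the dimmest kept one, Rpl7l1, had 128 (126.8, 132.0, 102.8 and 150.4). In 9 genes no probe set was kept. These were Rpl32, Rpl35a, Rpl38, Rpl39, Rpl39l, Rps14, Rps15, Rps20 and Rps27l, although most are core proteins of the ribosome. Rpl39, which lines the exit tunnel, read 60.9, 14.8, 81.1 and 42.4, and its relative Rpl39l 14.6, 50.5, 129.9 and 7.7. Rps20 read 6.1, 76.4, 12.8 and 15.1, below the floor in 3 arrays, and Rps27l 21.8, 58.8, 24.7 and 52.4. Rpl32 read 161.3, 30.2, 63.4 and 10.8 and Rps15 64.0, 18.8, 21.7 and 11.8. Rpl35a read 53.9, 38.9, 45.9 and 42.6 and Rps14 18.6, 41.3, 29.8 and 17.8, and the brighter probe set of Rpl38 90.4, 53.4, 100.3 and 86.3. Such values describe these probe sets near background and give no level for the genes. Rps27, the counterpart of Rps27l, was kept and read 1125, 930.4, 903.8 and 937.9.

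Start regions were searched for 4 short motifs, which the choice of genes did not use, and most members lacked each of them. RefSeq start regions (GRCm38.p6) were at hand for 28 of the 35 genes and for 27025 genes in all. The search covered 50 bases on either side of an annotated start. The letters CTTTCC resemble a core of the TOP motif. They stood on the gene's own strand in 11 of 28 member genes (39.3%) and in 5.43% of all genes. On both strands counted together it was 46.4% and 10.3%. The letters CCGGAAG, which ETS factors bind, stood on either strand in 8 of 28 (28.6%) and in 5.98% of all, AAGATGG, which YY1 binds, in 14.3% and 3.07%, and TATAAA, the TATA box, in 7.14% and 5.77%. These shares were not tested. Among the genes of the 17 bright probe sets, 14 had a start region, of which 3 held CTTTCC on the gene's strand. Some genes have several annotated starts, and a gene counts once if any holds the letters. A match is a description of these bases and not a bound site.
The following 30-base stretches, 5′ to 3′ on the gene's strand, show CTTTCC in capitals for members whose values are given above. Counted from an annotated start, the letters began at base 5 (Rps10), 36 (Rpl6), 10 (Rpl13a), 2 (Rps27) and 1 (Rpl38). For Rpl35a it was 32, 3 or -30, depending on the annotated start. A match therefore need not lie where the messenger RNA begins, as a TOP motif does.
Rps10, chr17:27635223-27635252, minus strand: gcacgccccttcCTTTCCagcctccgcctc
Rpl6, chr5:121204521-121204550, plus strand: cgctgccttagttctCTTTCCcgtcttgca
Rpl13a, chr7:45128719-45128748, minus strand: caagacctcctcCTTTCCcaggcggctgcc
Rps27, chr3:90213630-90213659, minus strand: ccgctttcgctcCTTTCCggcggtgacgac
Rpl38, chr11:114668568-114668597, plus strand: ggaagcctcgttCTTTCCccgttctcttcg
Rpl35a, chr16:33056472-33056501, plus strand: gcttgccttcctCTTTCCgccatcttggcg
The other genes with these letters on their strand were Rpl10a, Rpl19, Rpl22, Rpl39l and Rps19. Of all 11, Rps10, Rpl13a and Rpl19 had the 1 h and 4 h values above 2 h and 6 h on a kept probe set, 5 (Rpl6, Rps27, Rpl10a, Rpl22 and Rps19) had not, and 3 (Rpl38, Rpl35a and Rpl39l) were too dim to be kept. Over all kept members, with or without these letters, the order held for 17 of 31 probe sets.
The next stretches show CCGGAAG, or its reverse complement, in capitals for bright small subunit members.
Rps3a1, chr3:86142659-86142688, minus strand: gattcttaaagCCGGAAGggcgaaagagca
Rps10, chr17:27635255-27635284, minus strand: agccgcgcagcCCGGAAGagacgctgcgcc
Rps7, chr12:28635949-28635978, minus strand: tttcagaagagCTTCCGGtttccacccacc
These 3 genes, and Rpl19, had the 1 h and 4 h values above 2 h and 6 h, and Rpl6, the other bright gene with these letters, had not. Over all bright members, with or without these letters, the order held for 15 of 17 probe sets. A link between the letters and the order was not tested.

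The 39 probe sets that list a ribosomal protein gene beside other symbols were left out of the members, and no gene is named from them. Of their 34 kept probe sets, 32 were above the mean of the other arrays at 1 h (54.6% of all kept probe sets). At 2 h it was 5 (52.6%). Their median log2 deviations were 0.22, -0.20, 0.04 and -0.10 at 1, 2, 4 and 6 h. In 23 of 34 the 1 h and 4 h values were above those of 2 h and 6 h. That order held for 19% of all kept probe sets and 34% of those with a mean log2 value of 12 or more. With them the share of summed intensity was 7.21%, 5.96%, 6.65% and 6.12%.

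Genes related to the ribosome were read in the same way. Fau, which encodes a small subunit protein fused to a ubiquitin-like part, read 162.3, 72.6, 68.2 and 178.0, dim and with another order. Rack1, whose protein also sits in the ribosome, had no probe set of its own. Of 65 kept probe sets of mitochondrial ribosomal proteins, 46 were above the mean of the other arrays at 1 h (54.6% of all kept probe sets). Their median log2 deviations were 0.18, -0.05, -0.04 and -0.07. The 1 h and 4 h values were above 2 h and 6 h in 16 of the 65 (19% of all kept probe sets). Slopes were positive in 18 of 65 (46.5% of all kept probe sets), and 0 passed the test in either direction (0.0134% of all kept probe sets). The brightest were Mrpl27 (2683, 1883, 2166 and 2190) and Mrpl18 (2771, 2197, 2090 and 1766). Mrpl27 was highest at 1 h and lowest at 2 h, and Mrpl18 was highest at 1 h and lowest at 6 h. Whether this list differs from the cytosolic one was not tested.

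Ribosome biogenesis genes stood near the rest of the table. Of their 61 kept probe sets, 32 had positive slopes (46.5% of all kept probe sets). The test was passed by 0 in either direction (0.0134% of all kept probe sets). The median deviations were 0.02, 0.05, 0.01 and -0.04. Nop10, a small nucleolar RNP protein, read 3084, 3531, 3468 and 3635, Npm1 (nucleophosmin, an export factor of ribosomal subunits) 2826, 2205, 2802 and 2555, Rrp1 485.1, 1639, 1375 and 1489, and Nip7 504.9, 367.8, 340.3 and 244.8. Among these, Npm1 alone had the order of the bright ribosomal members. The mTOR and S6 kinase list, which sets translation of TOP messages and phosphorylates Rps6, had 15 of 24 positive slopes, with 0 past the test. Over all kept probe sets these shares were 46.5% and 0.0134%. The list had median deviations of -0.14, 0.21, 0.01 and 0.03, lowest at 1 h. Eif4ebp2, an mTOR target, read 2084, 2239, 2306 and 2083, Tsc2, an mTOR inhibitor, 2089, 2190, 2038 and 2074, Akt2 414.7, 955.4, 1063 and 964.1, and Pdpk1, which activates S6 kinases, 1130, 923.3, 698.0 and 558.0. These lists are dimmer than the ribosomal members, with median mean intensities of 589 (mitochondrial), 300 (biogenesis) and 1029 (mTOR) against 5833.

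**Figure D4:**
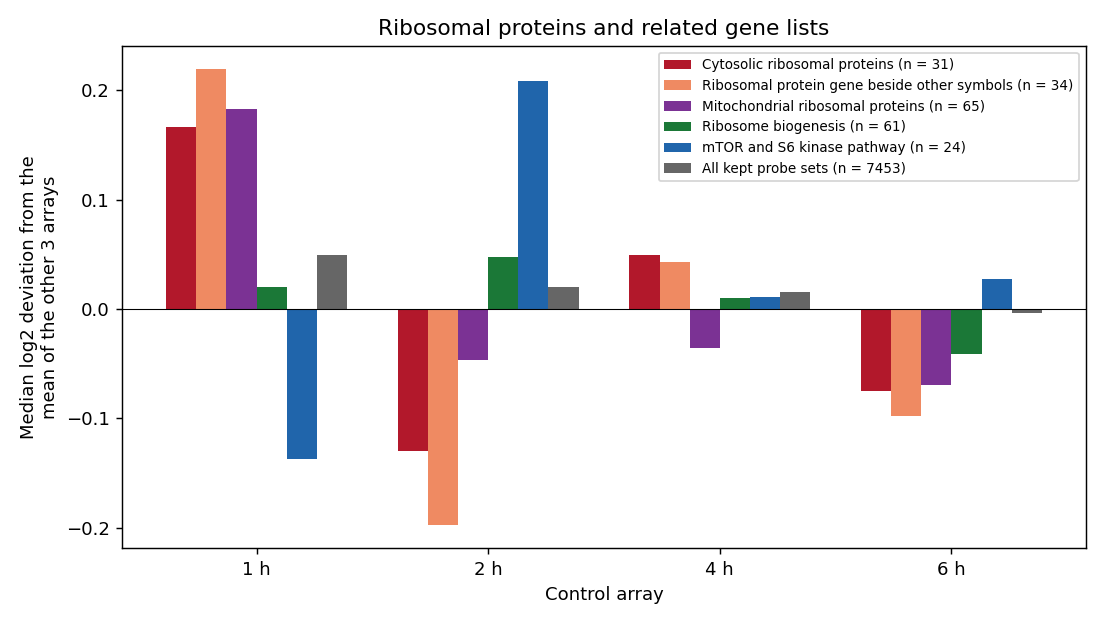
Median log2 deviation of each control array from the mean of the other 3 arrays, as bars from 0, for cytosolic ribosomal proteins and related lists (number of kept probe sets in the legend). At 1 h the cytosolic (0.17) and mitochondrial (0.18) ribosomal lists stand high and the mTOR list (-0.14) low, and at 4 h the cytosolic list is at 0.05 and the mitochondrial at -0.04.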

How the data were processed

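The deposited values are array intensities, linear and not logged, in a table with a column for each array. Software, scaling and detection calls are not stated in the labels. The 2% trimmed mean over all rows was 500.3 in each array, so a difference in total RNA does not show. Values were used as deposited. The 66 control rows were left out, intensities below the 10th percentile (16.4) were raised to that floor, and values were put on a log2 scale. Probe sets at or above the 40th percentile of mean log2 value (6.66) were kept, 7453 of 12422. Slopes on the hour were fitted with limma 3.58.1 in R 4.3.3 (lmFit, eBayes with a trend, two-sided, Benjamini-Hochberg). The fit was also run on simulated data with independent noise in each probe set. That simulation did not cover shifts shared by many probe sets of an array. Symbols came from the array annotation, and all 49 members matched RefSeq's gene table. Members and lists were chosen with earlier results of these data known. Alternatives were other filters on dim probe sets, log2 of the value plus 50, arrays scaled to the same median, quantile normalization, each array left out, a slope on log2 of the hour, other choices of probe sets and eBayes without a trend. Genes named by rule were the brightest, steepest, flattest and most variable members, those furthest from 1 h, those whose probe sets differ most, P-stalk and Rpsa, members outside the standard list, and the brightest and steepest of each related list. Other members are named so that each gene is accounted for. Spread between arrays limits precision, and read depth does not apply.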

Additional observations from a re-analysis of the deposited data

How the results depend on the processing

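The count of members past the slope test was 0 under every alternative run. The count of positive slopes, 9 of 31, was 16 of 49 with no filter on dim probe sets, 14 with arrays scaled to the same median, 16 of 65 with the probe sets that list other symbols, and 2 of 17 among members with a mean log2 value of 12 or more. Leaving out 1 array gave 8 to 18, the highest without 1 h, and 14 without 6 h. The 2 members at least 2-fold apart became 15 of 49 with no filter, 1 without suffixed identifiers, 4 of 65 with the added probe sets and 0 at or above 12. The order with 1 h and 4 h above 2 h and 6 h, 17 of 31, was 9 with the same median and 40 of 65 with the added probe sets. Over all kept probe sets it held for 19% in the values as deposited, and the share with the same median was not computed. The share of summed intensity was 2.68%, 2.27%, 2.48% and 2.30% at the 4 hours without Rpl41, and 7.21%, 5.96%, 6.65% and 6.12% with the added probe sets. Without the 1 h array, slopes changed sign for Rpl22 (brighter), Rps28 (dimmest) and Rps19. Over the fits without 1 array the slope ran from -0.108 to 0.506 for Rpl22, from -0.0525 to 0.0748 for Rps28 and from -0.156 to 0.0314 for Rps19, with limma adjusted p of 0.994, 0.999 and 0.999 without 1 h. The settings with the added probe sets, the split at 12 and all those of the order were chosen after seeing the data. The cause of these changes was not tested. Over all kept probe sets 1 was called, and 0 with no filter, without 4 h, without 6 h or with eBayes without a trend. No paired analysis was possible because each hour has 1 array. Dim probe sets near the floor give no level.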
